A study of Bos taurus with 26 samples.

Results

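The corpus luteum of Holstein cows labelled parity 4 was compared with that of cows labelled parity 3, parity being the number of calvings. The members were chosen from the labels alone. They were the 5 corpus luteum libraries labelled parity 4 and the 5 labelled parity 3, or 10 of the 26 libraries of the series and 10 of its 12 corpus luteum libraries. The cows came from a line of high fertility, Fert+, and a line of low fertility, Fert-, and all tissue was taken on day 13 of the oestrous cycle. Parity 4 held Fert+ libraries 19 and 23 and Fert- libraries 17, 20 and 28. Parity 3 held Fert+ libraries 15, 16 and 18 and Fert- libraries 25 and 27. No treatment separates the groups. Whether the libraries stem from different cows is not in the labels, so p-values here reflect only how these samples spread, which may be technical.

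The corpus luteum forms from the ruptured follicle after ovulation and secretes progesterone, the hormone that prepares the uterus for an embryo and is needed to keep a pregnancy. Its steroid-secreting cells lie among a dense net of capillaries, with fibroblasts and immune cells between them. In a cow that does not conceive, prostaglandin from the uterus ends progesterone secretion late in the cycle and the tissue regresses. Because whole tissue was sequenced, fewer cells of a type and less RNA per cell cannot be told apart in any value given here.

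The deposited tables name genes by ID only. Matching them to the available table of cattle gene names gave 0 matches for 24616 IDs, so no ID is named as a gene and none of the 14 gene lists for luteal function and cell types was tested (0 tested). The identity of the tissue was checked instead with IDs nearly restricted to 1 of the tissues of the series. The 17 luteal-restricted IDs averaged at least 100 CPM (read counts scaled to the total of their library) in corpus luteum and were at least 100-fold lower in the endometrium, the lining of the uterus. The 25 endometrium-restricted IDs met the reverse rule. Luteal-restricted IDs took 1.47% to 5.11% of the counts of the corpus luteum libraries and 0.00865% to 0.0148% of those of the endometrium libraries. Endometrium-restricted IDs took 0.00107% to 0.00728% and 0.755% to 1.80%, respectively. Both sets were chosen on this difference between tissues, which is therefore a check of the labels and no finding.

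Parity and batch nearly coincided, batch being a number given in the labels without further description. Batch 1 held the parity 4 libraries 20 and 28, and batch 2 held the parity 4 libraries 17 and 19. Batch 4 held the parity 3 libraries 15 and 18. Batch 3 alone held both parities, with 1 library of parity 4 (Fert+ 23) and 3 of parity 3 (Fert+ 16, Fert- 25 and Fert- 27). For the other 3 batches, parity and batch cannot be told apart. Total counts of the 10 libraries ran from 11924906 to 18008417, and 16118 to 17325 IDs had at least 1 count. No library repeated another: over 45 pairs, the chi-square of the counts was at least 19.3 times its degrees of freedom.

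Parity did not set the leading pattern among the libraries. In a principal component analysis of all 12 corpus luteum libraries, component 1 held 37.3% of the variance and placed Fert+ libraries 15, 16, 18 and 19 at scores of 53.3, 56.9, 56.2 and 52.5. The other 8 libraries lay between -51.5 and -8.58. The group of 4 thus joined all 3 Fert+ libraries of parity 3 with 1 of parity 4, and the other Fert+ library of parity 4, number 23, scored -24.3, among the Fert- libraries. On component 2, with 19.8% of the variance, Fert- 17 stood apart from all others at 77.3.

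**Figure D1:**
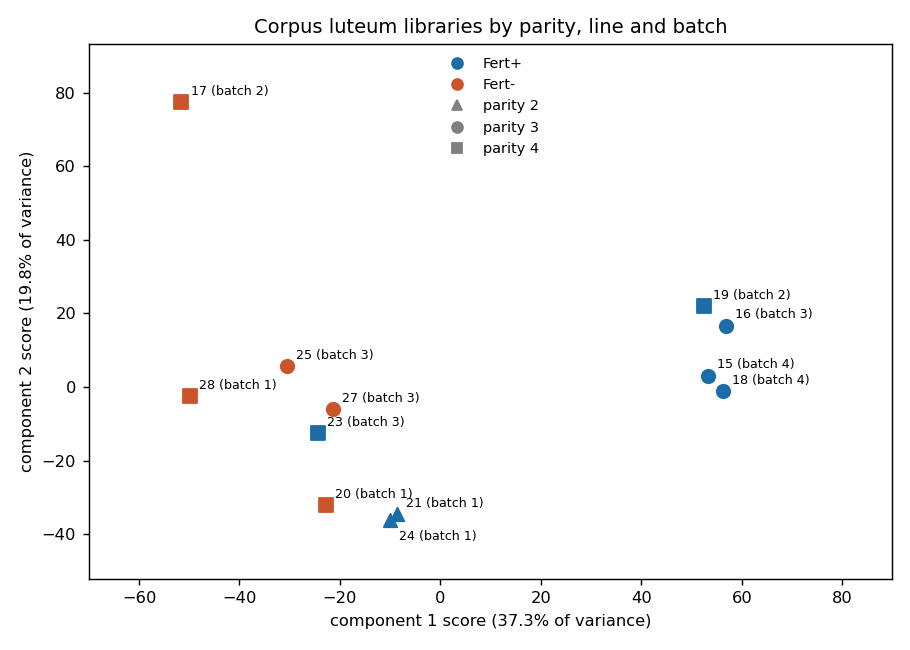
Scores of the 12 corpus luteum libraries on components 1 and 2 of log2 CPM, with the share of variance on each axis. Colour marks the line, shape marks parity, and each point carries its library and batch number. Fert+ libraries 15, 16, 18 and 19 sit above 50 on component 1, all others are below 0, and squares (parity 4) and circles (parity 3) occur on both sides.

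Pairwise distances gave the same layout. Measured as the root mean square difference in log2 CPM, Fert+ pairs within parity 3 were 0.421 to 0.446 apart (3 pairs). Fert+ pairs across the parities were 0.464 to 0.798 apart (6 pairs), where the lower values belong to library 19 and the upper ones, from 0.753, to library 23. The 2 Fert+ libraries of parity 4 were 0.778 apart, which is more than any of the 3 distances from library 19 to a parity 3 library of its line. Library 23 was closest to Fert- 25, of parity 3 and the same batch, at 0.470. In Fert-, the single parity 3 pair was 0.525 apart, pairs across the parities 0.572 to 0.811 (6 pairs), and parity 4 pairs 0.723 to 0.911 (3 pairs).

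No ID differed between parity 4 and parity 3 at the threshold used. In edgeR's quasi-likelihood test with line as covariate, 0 of 13522 IDs tested (0%) had a Benjamini-Hochberg adjusted p under 0.05, and the lowest adjusted p was 0.122. At an unadjusted p under 0.05 there were 730 IDs (5.4%), of which 430 were higher and 300 lower at parity 4. DESeq2 called 4 IDs (0.0296%), 1 higher and 3 lower, with 942 at an unadjusted p under 0.05, and limma with voom called 0, with 458. The typical difference was small: the median absolute log2 difference was 0.15, against a median standard error (SE) of 0.19, and 255 IDs were past 1 on the log2 scale. Leaving out any 1 library left the edgeR count at 0, while the count at an unadjusted p under 0.05 ran from 402 without Fert- 27 to 1484 without Fert+ 19. That count was also over 1.5 times lower without Fert+ 16 (476) and over 1.5 times higher without Fert- 20 (1240).

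The intervals show what size of difference the fit with line as covariate leaves room for. They hold only if batch adds no difference and both lines share the same parity difference. In that fit 255 IDs were past 1 on the log2 scale, beside 423 within Fert+, 712 within Fert- and 2117 with batch as a term. The 95% interval of the log2 difference had a median reach of 0.42 to either side, and for 10788 IDs (79.8%) it lay wholly within 1 of 0 in either direction. Among the 8922 IDs averaging 10 CPM or more, that share was 90.6% and the median reach 0.34. Among the 4600 IDs under 10 CPM, the share was 58.8% and the reach 0.66, so at lower abundance a log2 difference of 1 was often within the interval.

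Few IDs separated the parities library by library. All 5 parity 4 libraries lay above all 5 parity 3 libraries for 39 IDs (0.288%) and below them for 30 IDs (0.222%). Of these 69 IDs, 55 had an unadjusted p under 0.05 and 10 a log2 difference past 1, and none was called by edgeR.

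The IDs described next were taken as those with the smallest p in each direction, among IDs averaging at least 1 CPM. Values are CPM after TMM scaling, edgeR's correction of library totals, and log2 differences are parity 4 minus parity 3. The lowest p of all belonged to ENSBTAG00000023372, which was lower at parity 4. At parity 3 it stood at 12.5, 13.0 and 8.53 CPM in Fert+ libraries 15, 16 and 18, and at 12.4 and 18.4 CPM in Fert- libraries 25 and 27. At parity 4 it stood at 4.21 and 4.70 CPM in Fert+ libraries 19 and 23, and at 3.73, 4.86 and 4.86 CPM in Fert- libraries 17, 20 and 28. The groups did not overlap, and the parity 4 values were the closer together, at 4.47 ± 0.49 CPM against 12.9 ± 3.52 CPM at parity 3 (SD, n = 5 each).

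For ENSBTAG00000023372 and the other IDs named over both lines, limma with voom gave an adjusted p of 0.996. The log2 difference of ENSBTAG00000023372 was -1.56 (SE 0.19), with an adjusted p of 0.122 in edgeR and 1.08e-08 in DESeq2. The difference was -1.35 within Fert+ and -1.77 within Fert-, and a test of the gap between the lines gave an adjusted p of 0.928. Within batch 3 alone it was -1.48 (adjusted p 0.160), with batch as a term -1.58 (adjusted p 0.0647), and with any 1 library left out -1.66 to -1.39 (adjusted p 0.0665 to 0.563). The 2 libraries of parity 2 held 8.09 and 15.7 CPM, above every parity 4 value. In the endometrium this ID was scarce, with medians of 1.30 CPM at parity 3 and 1.03 CPM at parity 4.

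The second ID of the lower side was ENSBTAG00000010916, of low abundance. It held 1.88, 2.57 and 2.48 CPM in Fert+ libraries 15, 16 and 18 and 1.97 and 1.97 CPM in Fert- libraries 25 and 27, all of parity 3. At parity 4 it held 0.643 and 0.797 CPM in Fert+ libraries 19 and 23, and 0.663, 0.890 and 0.270 CPM in Fert- libraries 17, 20 and 28. No library of one parity reached the other. These levels rest on 3 to 15 counts per parity 4 library and 23 to 52 per parity 3 library. The log2 difference was -1.66 (SE 0.30), with an adjusted p of 0.811 in edgeR and 0.0199 in DESeq2.

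On the higher side, ENSBTAG00000014670 had the smallest p. Its parity 3 values were 1.52, 1.19 and 1.34 CPM in Fert+ libraries 15, 16 and 18 and 2.68 and 2.31 CPM in Fert- libraries 25 and 27. Its parity 4 values were 2.93 and 3.03 CPM in Fert+ libraries 19 and 23 and 6.22, 4.03 and 4.86 CPM in Fert- libraries 17, 20 and 28. The parities did not overlap, and within each parity the Fert- values were the higher ones. Its log2 difference was 1.07 (SE 0.20), with an adjusted p of 0.811 in edgeR and 0.0372 in DESeq2, and it was 1.13 within Fert+ and 1.01 within Fert-.

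ENSBTAG00000010828 followed, with overlap between the groups. It ranged from 0.775 to 1.47 CPM at parity 3 and from 1.31 to 3.74 CPM at parity 4, where Fert- 20 was lowest and Fert+ 23 highest. The log2 difference was 1.32 (SE 0.29), with adjusted p of 0.811 in edgeR and 0.141 in DESeq2.

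One more ID is named after its values were seen, because DESeq2 called it. ENSBTAG00000004578 held 7.30, 6.33 and 7.96 CPM in Fert+ libraries 15, 16 and 18 and 6.88 and 5.22 CPM in Fert- libraries 25 and 27. At parity 4 it held 3.64 and 3.27 CPM in Fert+ libraries 19 and 23, and 1.91, 1.25 and 0.540 CPM in Fert- libraries 17, 20 and 28. The groups were separate, with the 3 Fert- libraries of parity 4 lowest. Its log2 difference was -1.64 (SE 0.33), with an adjusted p of 0.811 in edgeR and 0.00854 in DESeq2. It was -1.06 within Fert+ and -2.28 within Fert-, with an adjusted p of 0.928 for the gap between the lines. In batch 3 alone it was -0.97 (adjusted p 0.288), which is over 1.5 times smaller than over all batches.

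**Figure D2:**
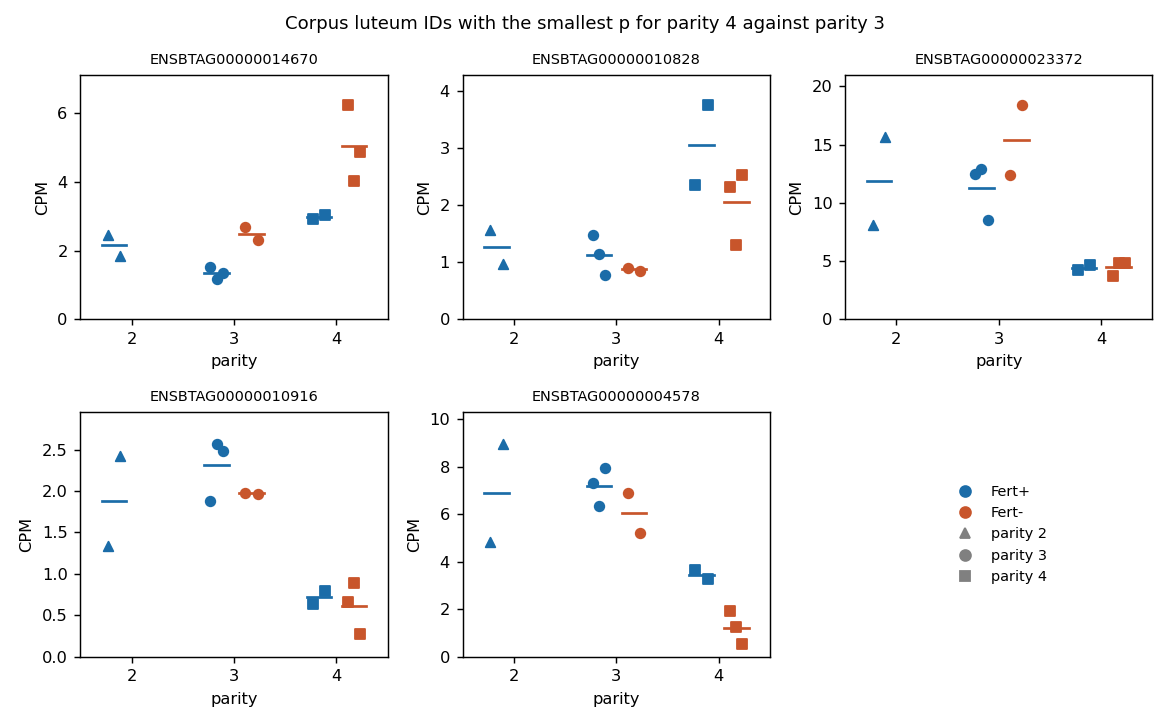
CPM of 5 IDs in each corpus luteum library (points) by parity and line, with short bars at the mean of each line and parity; axes start at 0. For ENSBTAG00000023372, ENSBTAG00000010916 and ENSBTAG00000004578 the squares of parity 4 all lie below the circles of parity 3, for ENSBTAG00000014670 they lie above, and for ENSBTAG00000010828 they overlap.

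Presence and absence hardly separated the parities. Over all 24616 IDs, 1 had a count in every parity 3 library and none at parity 4, and 1 had the reverse pattern. Both were picked after their values were seen. ENSBTAG00000006278 had 1, 5 and 7 counts in Fert+ libraries 15, 16 and 18 and 1 count each in Fert- libraries 25 and 27. ENSBTAG00000013027 had 61, 2 and 19 counts in Fert- libraries 17, 20 and 28, and 1 and 3 counts in Fert+ libraries 19 and 23. The first is too scarce at parity 3 for a count of 0 to show a difference, and most counts of the second came from Fert- 17 and 28.

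A share of the large differences came from single libraries. Of the 14746 IDs with at least 50 counts over the 10 libraries, 116 had at least 90% of their summed CPM in 1 library. Of these, 104 had it in Fert- 17 and 12 in Fert- 28, both of parity 4, and none in the other 8 libraries. The 104 IDs took 1.01% of the counts of Fert- 17, the most abundant reaching 31919 counts, and 9 of them had no count in the other 9 libraries. Most did not enter the test, since 10 of the 104 passed the low-count filter. Of the 255 IDs tested with a log2 difference past 1, 76 had at least 50% of their summed CPM in 1 library, in 44 cases Fert- 17 and in 25 Fert- 28. Over all IDs tested this held for 90 of 13522.

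The luteal-restricted IDs, the nearest stand-in for markers of the tissue, leaned lower at parity 4 without passing a test. Of the 17, 6 were higher and 11 lower, 0 were called and 2 (11.8%) had an unadjusted p under 0.05, beside 5.4% of all IDs tested. With 17 members, 2 is near that background. Their median log2 difference was -0.17, against 0.01 over all IDs tested, where 7018 were higher and 6504 lower. Within Fert+ their median was -0.03 and within Fert- it was -0.45. Of the 25 endometrium-restricted IDs, 8 were abundant enough to test in corpus luteum. Of these, 7 were higher and 1 lower at parity 4, with a median of 0.69, 0 called and a median SE of 0.69.

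Summed over its 17 members, the luteal-restricted share of counts was 4.59% ± 0.255 at parity 3 and 3.32% ± 1.28 at parity 4 (SD, n = 5 each). The 5 parity 3 libraries were close together, between 4.40% and 5.03%. At parity 4, Fert+ 19 held 5.01%, Fert+ 23 held 3.69%, and Fert- 17, 20 and 28 held 2.99%, 3.43% and 1.47%. The groups overlapped through Fert+ 19 alone. The 95% counting interval of any of these shares (exact binomial) extended at most 0.0121 percentage points either way. The mean within-line difference was -1.08 percentage points, -0.305 in Fert+ and -1.86 in Fert-. An exact two-sided permutation of parity within line gave p = 0.09 (0.225 adjusted over 5 library summaries), where 0.01 is the smallest p that its 100 arrangements allow. Without Fert+ 19, the one library through which the groups overlapped, the difference was -1.41. The exact p = 0.025 before adjustment is then the smallest that the remaining arrangements allow, as the groups no longer overlap. In batch 3, Fert+ 23 minus Fert+ 16, the one pair of both parities within a line, gave -0.835 percentage points.

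Parity 4 libraries held fewer counts on average, without passing a test. Total counts averaged 13510000 ± 1879000 at parity 4 and 16730000 ± 2223000 at parity 3 (SD, n = 5 each), with an exact p = 0.08 (0.225 adjusted). The difference was -4927000 counts in Fert+ and -1281000 in Fert-. Over the lines it was -1853000 without Fert- 25, -4355000 without Fert- 27 and -3787000 without Fert- 20. The last of these had an exact p = 0.0333 before adjustment. In Fert+ the groups did not overlap: libraries 19 and 23 held 12702533 and 12824467 counts, and libraries 15, 16 and 18 between 17209398 and 18008417. The part of depth in the differences of low-count IDs was not tested. The number of IDs with a count differed by -237 (exact p = 0.33), with opposite signs in Fert+ (-571) and Fert- (97.2). Its value was -431 without Fert+ 19, -43.1 without Fert+ 23 and -133 without Fert- 25. The share of the 10 most abundant IDs differed by -1.01 percentage points (exact p = 0.25), again with opposite signs, 0.372 in Fert+ and -2.39 in Fert-. That difference was -0.672 without Fert+ 18. Without Fert+ 15 it was -1.43, with an exact p = 0.0333 before adjustment. Endometrium-restricted IDs took 0.00471% ± 0.00167 of the counts at parity 4 and 0.00308% ± 0.00219 at parity 3 (exact p = 0.29, n = 5 each). Their within-line difference of 0.0013 points moved to 0.000755 without Fert- 17, 0.00253 without Fert- 25 and 5.5e-05 without Fert- 27. The adjusted p of each of these 3 summaries was 0.33.

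**Figure D3:**
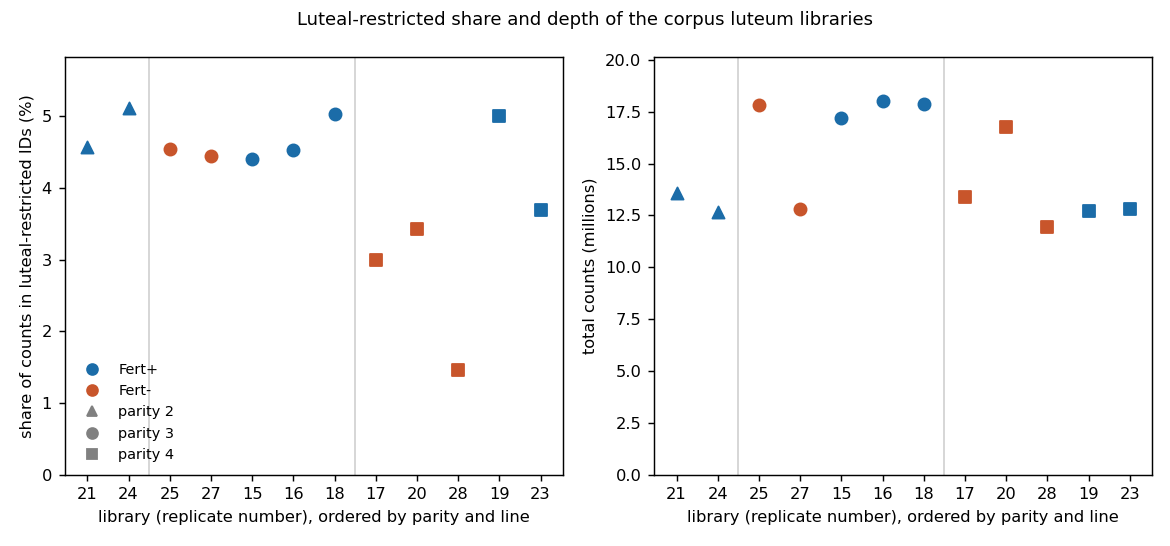
Share of counts in the 17 luteal-restricted IDs (left, %) and total counts (right) for each corpus luteum library, ordered by parity and then line, with grey lines between parities. Parity 3 libraries hold 4.40% to 5.03%, and of the parity 4 libraries Fert+ 19 reaches 5.01% while the other 4 lie below every parity 3 library.

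Over both lines together, the 50 most abundant IDs did not set the parities apart. At parity 4, 29 were higher and 21 lower, 0 were called, and the median log2 difference was 0.08, with 2 IDs (4%) at an unadjusted p under 0.05, beside 5.4% of all IDs tested. Within Fert+, 43 were higher and 7 lower, with a median of 0.26, beside 6683 higher and 6839 lower over all IDs tested. There, 3 of the 50 had an unadjusted p under 0.05, beside 3.29% of all IDs tested. Within Fert-, 24 were higher and 26 lower, with a median of -0.02, beside 7502 and 6020. An unadjusted p under 0.05 was held by 6 of the 50 in that line, beside 6.55% of all IDs tested.

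The lines were then taken one at a time, in one fit with a parity term for each. Within Fert+ (2 libraries of parity 4 against 3 of parity 3), edgeR called 0 IDs, and the smallest adjusted p was 0.891, with 445 IDs (3.29%) at an unadjusted p under 0.05. DESeq2 called 10 (8 higher, 2 lower) and limma with voom 0, with 430 at an unadjusted p under 0.05. These counts hung on which parity 4 library was present. Without Fert+ 19, parity 4 was Fert+ 23 alone, and edgeR called 627 IDs, 57 higher and 570 lower, with 2878 at an unadjusted p under 0.05. Without Fert+ 23, parity 4 was Fert+ 19 alone, and 0 were called, with 215 at an unadjusted p under 0.05. That count was also 744 without Fert- 17, and 296, 244 and 280 without Fert+ 15, 16 or 18. When 1 library stands for parity 4, the lone library is assumed to vary like the other groups. Libraries 19 and 15, 16 and 18 are the 4 that lay together on component 1, and the parity of Fert+ 23 cannot be told apart from its place outside them.

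The 4 IDs with the smallest p within Fert+ were ENSBTAG00000023372, given above, and 3 others. Limma with voom gave each an adjusted p of 0.9998 within Fert+. Their choice by smallest p favours groups that do not overlap. With 2 libraries against 3, such separation easily arises by chance, and its share among all IDs was not counted. ENSBTAG00000001592 held 99.5, 101 and 88.4 CPM in Fert+ libraries 15, 16 and 18, against 359 and 295 CPM in the parity 4 libraries 19 and 23. Both parity 4 libraries stood far above the 3 parity 3 libraries, which were close together. In Fert- the values overlapped, at 196 and 113 CPM in libraries 25 and 27 and 139, 232 and 132 CPM in libraries 17, 20 and 28. The log2 difference was 1.75 (SE 0.29) within Fert+ and 0.12 (SE 0.29) within Fert-. Its adjusted p within Fert+ was 0.891 in edgeR and 5.86e-05 in DESeq2, and that of the difference between the lines was 0.83 in edgeR. Without Fert+ 19 the Fert+ difference was 1.60 (adjusted p 0.0452), and without Fert+ 23 it was 1.9 (adjusted p 1.00).

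ENSBTAG00000027962 held 1.67, 2.13 and 1.65 CPM in Fert+ libraries 15, 16 and 18, against 8.85 and 21.1 CPM in libraries 19 and 23. In Fert-, library 25 held 2.80 CPM and library 27 held 9.49 CPM at parity 3, and libraries 17, 20 and 28 held 9.53, 12.2 and 9.81 CPM at parity 4. The parities thus did not touch in Fert+ and nearly met in Fert-. Its log2 difference was 3.03 (SE 0.50) within Fert+, with an adjusted p of 0.891 in edgeR and 5.86e-05 in DESeq2, and 0.79 (SE 0.50) within Fert-. The difference between the lines had an adjusted p of 0.928. Without Fert+ 19 the Fert+ difference was 3.52 (adjusted p 0.00954), and without Fert+ 23 it was 2.28 (adjusted p 1.00).

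On the lower side, ENSBTAG00000011187 held 61.3, 50.9 and 67.5 CPM in Fert+ libraries 15, 16 and 18, and 37.8 and 27.2 CPM in libraries 19 and 23. All 5 Fert- libraries lay between 32.4 and 36.8 CPM, at the level of the Fert+ libraries of parity 4. The log2 difference was -0.89 (SE 0.18) within Fert+ and -0.10 (SE 0.18) within Fert-, with a Fert+ adjusted p of 0.891 in edgeR and 0.0255 in DESeq2. Without Fert+ 19 it was -1.15 (adjusted p 0.0175), and without Fert+ 23 it was -0.66 (adjusted p 1.00).

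Within Fert- (3 libraries of parity 4 against 2 of parity 3), edgeR called 0 IDs, and the smallest adjusted p was 0.239, with 886 IDs (6.55%) at an unadjusted p under 0.05. DESeq2 called 73 (24 higher, 49 lower), and limma with voom 0, with 1097 at an unadjusted p under 0.05. Leaving out any 1 of the 10 libraries gave 0 to 3 calls, 3 of them without Fert- 17 and 1 without Fert- 20. The count at an unadjusted p under 0.05 was 1602 and 1356 without Fert- 17 or 20, and 546 and 485 without Fert- 25 or 27. Within Fert- both parity 3 libraries are of batch 3 and the parity 4 libraries of batches 1 and 2, so parity and batch cannot be told apart in any value of this line.

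The 4 IDs named for Fert- had groups that did not overlap within that line, which their choice by smallest p favours. With 3 libraries against 2, such separation easily arises by chance, and its share among all IDs was not counted. Their adjusted p within Fert- was 0.152 to 0.247 in limma with voom. ENSBTAG00000005685 held 7.20 and 6.58 CPM in libraries 25 and 27 at parity 3, and 22.1, 35.2 and 45.4 CPM in libraries 17, 20 and 28 at parity 4. In Fert+ it stayed between 4.00 and 9.07 CPM in all 5 libraries. Its log2 difference was 2.31 (SE 0.40) within Fert- and -0.32 (SE 0.38) within Fert+, and the Fert- adjusted p was 0.259 in edgeR and 1.07e-05 in DESeq2. In the endometrium the same ID was more abundant, with medians of 139 CPM at parity 3 and 163 CPM at parity 4.

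ENSBTAG00000019984 held 12.5 and 12.2 CPM in Fert- libraries 25 and 27, and 20.2, 21.6 and 23.8 CPM in libraries 17, 20 and 28. The Fert+ libraries of both parities lay at 11.3 to 13.7 CPM, with the Fert- libraries of parity 3. The log2 difference within Fert- was 0.83 (SE 0.17), with an adjusted p of 0.357 in edgeR and 0.00252 in DESeq2.

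ENSBTAG00000008434 held 43.4 and 36.3 CPM in Fert- libraries 25 and 27, and 18.2, 14.8 and 13.6 CPM in libraries 17, 20 and 28. The 5 Fert+ libraries, at 31.3 to 41.6 CPM, were all above the Fert- libraries of parity 4. The log2 difference was -1.35 (SE 0.19) within Fert- and 0.08 (SE 0.19) within Fert+, with a Fert- adjusted p of 0.239 in edgeR and 3.34e-06 in DESeq2.

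ENSBTAG00000000005 held 31.5 and 23.3 CPM in Fert- libraries 25 and 27, and 10.9, 9.78 and 8.37 CPM in libraries 17, 20 and 28. The Fert+ libraries lay between the Fert- parities, at 14.4 to 16.4 CPM at parity 3 and 17.2 and 22.7 CPM at parity 4. Its log2 difference was -1.49 (SE 0.21) within Fert- and 0.36 (SE 0.21) within Fert+, with a Fert- adjusted p of 0.239 in edgeR and 3.34e-06 in DESeq2. This ID also had the smallest p of the 12 named IDs for the difference between the lines, with an adjusted p of 0.486.

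**Figure D4:**
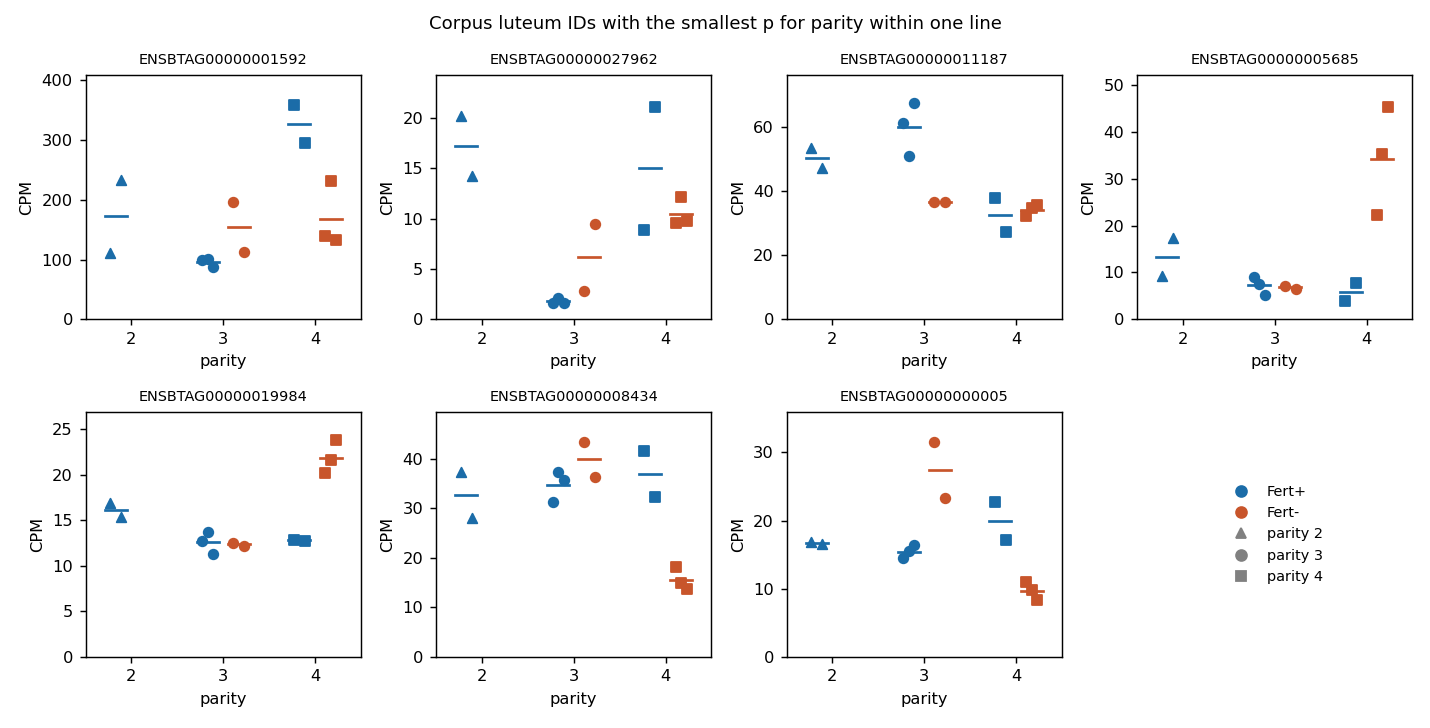
CPM of 7 IDs in each corpus luteum library (points) by parity and line, with short bars at the mean of each line and parity; axes start at 0. In the first 3 panels the Fert+ squares of parity 4 stand apart from the Fert+ circles of parity 3, and in the other 4 panels the same holds for Fert- while Fert+ values of both parities overlap or lie close.

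Across IDs, the parity differences of the lines bore little relation to each other. The lines share no library, and over the 13522 IDs the correlation of their log2 differences was 0.0236 (Pearson) and 0.0707 (Spearman), given as a description because IDs are not independent. The sign matched for 7107 IDs (52.6%). At an unadjusted p under 0.05, 43 IDs were shared, which is 9.66% of the Fert+ IDs and 4.85% of the Fert- IDs, and the signs matched for 24 of the 43. A test of the difference between the lines called 0 IDs in edgeR, the smallest adjusted p being 0.486, and 627 IDs had an unadjusted p under 0.05. DESeq2 called 31 (28 with the more positive signed parity difference in Fert+) and limma with voom 0, with 613 at an unadjusted p under 0.05. Without Fert+ 19, edgeR called 257 IDs, and without Fert+ 18 it called 1. At an unadjusted p under 0.05 there were 2141 IDs without Fert+ 19, 1386 without Fert- 17, 405 without Fert+ 15 and 376 without Fert- 25.

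Adding batch as a term changed the result most. With line and batch, edgeR called 810 IDs (5.99%), 104 higher and 706 lower at parity 4, with 3254 at an unadjusted p under 0.05. DESeq2 called 1256 (323 higher, 933 lower) and limma with voom 688 (81 higher, 607 lower). In this fit the parity term rests on batch 3, and so on Fert+ 23 as its one library of parity 4. Without Fert+ 23 the term could not be estimated, and the other omissions gave 124 (without Fert+ 16) to 1132 calls (without Fert- 20). Omitting Fert+ 15, Fert- 17, Fert+ 18, Fert+ 19, Fert- 25 or Fert- 27 left 311, 427, 303, 380, 482 and 392 calls. In batch 3 alone, fitted with line, 0 IDs were called and 2957 had an unadjusted p under 0.05.

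The libraries behind the 706 IDs called lower did not divide by parity. Their mean log2 CPM was 5.06, 5.21 and 5.09 in Fert+ libraries 15, 16 and 18, and 3.54 and 3.61 in Fert- libraries 25 and 27, all of parity 3. At parity 4 it was 5.14 in Fert+ 19 and 3.49 in Fert+ 23, and 3.42, 3.58 and 3.54 in Fert- libraries 17, 20 and 28. The 4 Fert+ libraries that lay together on component 1 were high whatever their parity, and Fert+ 23 was at the level of the Fert- libraries. The list was called on Fert+ 23 against the other batch 3 libraries. A low Fert+ 23 beside a high Fert+ 16 therefore follows from the choice of these IDs. The median log2 difference of these 706 IDs was -1.54 with the batch term and -0.28 without it, where 37 had an unadjusted p under 0.05 and 0 were called. The 104 IDs called higher had medians of 1.06 and 0.37, and 26 had an unadjusted p under 0.05 without the batch term. Of the named IDs, ENSBTAG00000011187 was called in this fit, at -0.85 (SE 0.16, adjusted p 0.0321).

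**Figure D5:**
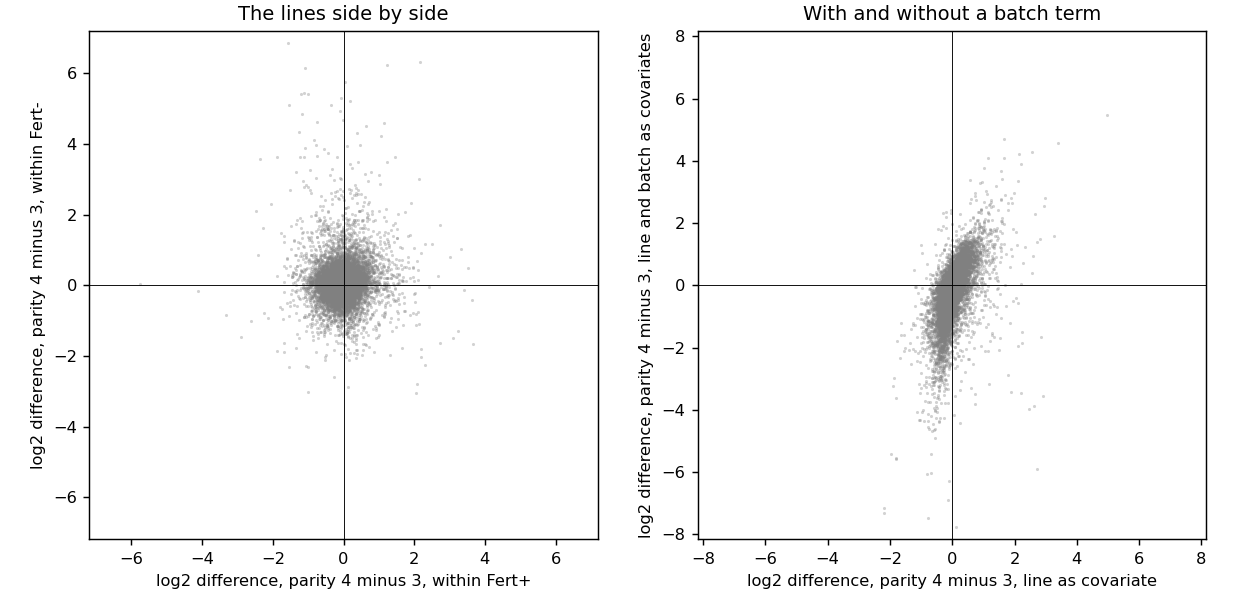
Log2 differences, parity 4 minus parity 3, of the 13522 IDs tested (1 point each). The left plot sets Fert- against Fert+, and the points spread around 0 with no common slope (Pearson 0.0236). The right plot sets the fit with line and batch against the fit with line, and shows values far below 0 with the batch term for IDs near 0 without it.

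Parity 2 served as a check of direction only, because its 2 corpus luteum libraries, Fert+ 21 and Fert+ 24, were both of batch 1. In a fit of all 12 libraries with line, parity 3 minus parity 2 gave 0 calls of 14294 IDs in edgeR (lowest adjusted p 0.0866), while 2723 IDs had an unadjusted p under 0.05. DESeq2 called 1135 and limma with voom 4149 for this contrast. Parity 4 minus parity 2 gave 0 calls (lowest adjusted p 0.311), while 1829 IDs had an unadjusted p under 0.05, and DESeq2 called 239 and limma with voom 2152. Without Fert+ 23 edgeR called 1805 IDs for parity 3 minus parity 2 and 1354 for parity 4 minus parity 2. Without Fert+ 21 or 24, which leaves 1 library of parity 2, the counts at an unadjusted p under 0.05 were 1514 and 1401 for parity 3 minus parity 2, and 906 and 786 for parity 4 minus parity 2. For the latter they were 977 without Fert+ 19 and 3544 without Fert+ 23. The 3 contrasts share libraries, so their values are only set side by side.

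The counts and log2 differences below come from the fit of all 12 libraries. It takes the same parity difference for both lines, although parity 2 held no Fert- library, so Fert- values enter them. Of the 6 named IDs with a negative parity difference over both lines, parity 2 lay nearer to parity 3 than to parity 4 for 4. Of the 6 with a positive difference this held for 2. ENSBTAG00000023372 differed by 0.02 (log2) between parity 3 and parity 2 and by -1.54 between parity 4 and parity 2. For ENSBTAG00000010916 the same differences were 0.30 and -1.37, with parity 2 values of 1.34 and 2.42 CPM. For ENSBTAG00000004578 they were 0.31 and -1.33, with parity 2 values of 4.83 and 8.95 CPM. On the higher side, ENSBTAG00000010828 gave -0.12 and 1.20, whereas ENSBTAG00000014670, with 2.45 and 1.86 CPM at parity 2, gave -0.64 and 0.43. In that fit, ENSBTAG00000008434 (0.42 and -0.21) and ENSBTAG00000000005 (0.32 and -0.23) were nearer to parity 4. Within Fert+ alone, the mean CPM of ENSBTAG00000008434 at parity 2, 3 and 4 was 32.59, 34.71 and 36.94. That of ENSBTAG00000000005 was 16.66, 15.45 and 19.95, so within Fert+ parity 2 was nearer to parity 3 for both. ENSBTAG00000027962 gave no steady direction: its parity 2 values of 20.2 and 14.2 CPM were above the 3 Fert+ libraries of parity 3, and the differences were -2.64 and -0.74. None of these log2 differences had an adjusted p under 0.05 in edgeR.

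The endometrium of the same series, with 11 libraries of parity 3 and 4, was set beside the corpus luteum. No ID passed the edgeR test of whether the parity difference differed between the tissues (0 of 14838, lowest adjusted p 0.293, and 1038 IDs with an unadjusted p under 0.05). With batch within tissue as a term, 436 IDs were called. The signed difference, parity 4 minus parity 3, was more positive in the corpus luteum for 46 and more negative for 390. Which tissue had the larger size of difference is not given by these counts. In that fit the parity term of either tissue rests on 1 library of parity 4 in batch 3, so the 436 compare single libraries. Without batch, leaving out Fert+ 19 of the corpus luteum gave 3 calls, and 1646 IDs at an unadjusted p under 0.05. The smallest p of the named IDs was that of ENSBTAG00000010916, at -2.86 (SE 0.50, adjusted p 0.293). Its endometrial values were 0.103 to 0.206 CPM at parity 3 and 0.234 to 0.657 CPM at parity 4. It was too scarce to pass the filter in the endometrium alone and entered this test through the corpus luteum. The named IDs were chosen for a small p in the corpus luteum, so their differences between tissues are no separate support. For ENSBTAG00000023372 the difference between tissues was -1.36 (adjusted p 0.659).

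Of the 10 named IDs that could be tested in the endometrium alone, 5 had the same sign of the parity difference as in the corpus luteum and 5 the opposite. ENSBTAG00000027962 had a positive difference in both tissues, past the threshold in neither. Its 5 endometrium libraries of parity 3 ranged from 1.30 to 6.35 CPM with a median of 2.19, and its 6 of parity 4 from 7.70 to 18.2 CPM with a median of 10.9. The groups did not overlap, and the log2 difference in the endometrium alone was 2.09 (SE 0.41, adjusted p 0.277 in edgeR), beside 1.89 (SE 0.49, adjusted p 0.811) over both lines in the corpus luteum. The labels do not say whether the 2 tissues came from the same cows, so these are not 2 independent observations. Among these endometrium libraries too, batch 3 alone held both parities. For the other batches, parity and batch cannot be told apart. How many IDs did not overlap between the parities in the endometrium was not counted. ENSBTAG00000011187, with -0.48 (SE 0.14, adjusted p 0.315) in the endometrium and -0.49 (SE 0.18, adjusted p 0.811) in the corpus luteum, was also of one sign. ENSBTAG00000010828 was among those of opposite sign, with -1.55 (SE 0.91) in the endometrium and 1.32 in the corpus luteum.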

How the data were processed

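Polyadenylated RNA was sequenced from TRIzol extracts with an unstranded TruSeq RNA kit, per the labels' protocols. Per the submitters' processing notes, featureCounts, STAR 2.3.0, Trim Galore, FastQC 0.10.0 and CASAVA 1.9 were used, with build UMD3.1. The deposited values are whole-number read counts per gene ID, not normalised. How reads with several alignments were counted, and the annotation release, were not given in the sources used here. Values of overlapping, antisense and near-identical genes are therefore uncertain.

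IDs passed edgeR's filterByExpr by parity. Counts were scaled by TMM and tested in edgeR 4.0.16 (R 4.3.3; robust quasi-likelihood F test, both directions, Benjamini-Hochberg adjusted p under 0.05), with line as covariate. SE is the log2 difference over the square root of F. CPM values use TMM-scaled totals. The fit was tested on simulated data. Depth sets the precision of low-count IDs, and binomial intervals cover counting error only. Library summaries were compared by exact two-sided permutation within line.

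For each comparison, at most 2 IDs per direction with the smallest p and a mean of at least 1 CPM were named, over both lines and within each line. The libraries, lists and rules were chosen with earlier results of these data known. Alternatives were RLE and upper-quartile scaling, other filters, limma 3.58.1 (voom with sample quality weights), DESeq2 1.42.0, no covariate, batch as a term, all 12 libraries, single batches left out, the 4 Fert+ libraries left out, each library left out, and an adjusted p under 0.1. Alternatives of the batch-term fit and of the parity 2 contrasts were chosen after seeing the data. No library was left out of the main comparisons.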

Additional observations from a re-analysis of the deposited data

Results flagged for a closer look

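In 6 of the 34 sets of 5 libraries examined (one quantity at one parity), 1 library lay far from the other 4 by Dixon's criterion, which chance alone gives in about 1 of 20 sets. The first 3 were library summaries at parity 3. The total of Fert- 27 was 12792912 counts, and the nearest other library had 17209398. The luteal-restricted share of Fert+ 18 was 5.03%, above the next at 4.54%. The endometrium-restricted share of Fert- 25 was 0.00698%, and the next was 0.00234%.

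The other 3 were named IDs. ENSBTAG00000001592 stood at 196 CPM in Fert- 25, against 113 CPM in the next parity 3 library. ENSBTAG00000027962 stood at 9.49 CPM in Fert- 27, against 2.80 CPM in the next library of parity 3. At parity 4 the same ID stood at 21.1 CPM in Fert+ 23, against 12.2 CPM in the next.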

How the results depend on the processing

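No paired analysis was run, because each library carries a number of its own and the labels name no cow. Corpus luteum and endometrium libraries of the same line, batch and parity may still share cows. For parity 4 against parity 3 with line, edgeR called 0 IDs under RLE and upper-quartile scaling, other filters, no covariate, all 12 libraries, single batches left out, batch 3 alone, without the 4 Fert+ libraries, an adjusted p under 0.1, and any 1 library left out. DESeq2 called 4 IDs and the fit with batch 810, the latter resting on 1 library of parity 4. DESeq2 called 10 IDs within Fert+, 73 within Fert- and 31 for the difference between the lines. Leaving out 1 library gave 0 to 627 calls within Fert+, 0 to 3 within Fert-, 0 to 257 for the difference between the lines and 0 to 3 for the difference between tissues, where batch within tissue gave 436. With batch as a term, DESeq2 called 1256 IDs, and omissions gave 124 to 1132. For parity 3 minus 2, DESeq2 called 1135, limma with voom 4149, and omissions gave 0 to 1805. For parity 4 minus 2 the values were 239, 2152 and 0 to 1354.

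Of the library summaries, the total differed by -4355000 to -1853000 counts with 1 library left out, and permuting parity over all 10 libraries gave -3218000 (exact p = 0.0397). The luteal-restricted share differed by -1.41 to -0.753 percentage points, and by -1.27 over all 10 libraries (exact p = 0.0397). The share of the 10 most abundant IDs differed by -1.43 to -0.672 points with 1 library left out and by -0.01 in batch 3 alone, where IDs with a count differed by -1087. The cause of these differences was not tested. For the named IDs, each under the alternatives of the comparison that named it, 220 values kept sign and side of the threshold, 15 came under it, each with DESeq2 or without Fert+ 19, and 0 changed sign. Outside that tally, ENSBTAG00000011187, named within Fert+, came under it in the fit with batch. The IDs of the tally were named for a small p in these same libraries. Within a line, leaving out a library of the other line hardly moves the log2 difference. The tally was thus partly fixed in advance and is no separate support. At this depth, differences under 1 on the log2 scale could often not be shown for IDs under 10 CPM.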
